A study of Mus musculus with 4 samples.

Results

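The genes described are Trp53, which encodes the transcription factor p53, its regulators Mdm2 and Mdm4, and 7 direct p53 targets, Cdkn1a, Ccng1, Zmat3, Phlda3, Eda2r, Sesn2 and Trp53inp1. They were chosen by symbol, and all 10 were found among the 24346 gene symbols of the series. They were followed in cells grown from the dorsal skin epithelium of 4-week-old C3H/HeN mice, which had been sorted as CD49f- and CD34-positive hair follicle stem cells (HFSCs) and passaged without serum or feeder cells in the medium M-CnT. Both groups share this origin, strain and medium and differ in passage number, with 2 libraries of cells after 10 passages (10p-HFSCs) and 2 of cells after 48 passages (48p-HFSCs). Whether the libraries of a group came from separate cultures is not given in the sources used here, so the spread between them may be technical. RNA abundance is given as FPKM, which the paper defines as a fragment density scaled by exon length and by the mapped fragments of the library. The scaling by length makes levels of different genes only roughly comparable. A correction for transcript length and base composition changed some of the differences given below. The submitters' processing notes and the paper's methods name different programs for this step, so the library scaling of the deposited values is uncertain.

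p53 is held low in unstressed cells by MDM2, a ubiquitin ligase that marks it for degradation, and by the related protein MDM4, which masks its activation domain. After DNA damage or other stress p53 is stabilised and binds a response element made of adjacent 10-base half-sites near its target genes. Its targets stop the cell cycle, start cell death, repair DNA and adjust metabolism, and Mdm2 is itself a target, which closes a feedback loop. In cultured rodent cells, loss of p53 or of the upstream p19ARF is a well-known route to unlimited growth.

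To show the sequence through which p53 recognises its targets, the RefSeq promoter windows of GRCm38.p6, each from 250 bases before to 50 bases after a start site, were searched for the p53 consensus. Of the 10 genes, 8 had a window, and 3 held a full site of 20 bases with at most 3 mismatches in which the invariant C and G of both half-sites were matched, compared with 1.63% of 27025 genes with a window. A site with at most 1 mismatch was found in Cdkn1a and Ccng1, and in 0.0814% of all genes. In Cdkn1a the site lay 51 to 32 bases before the upstream start and ended 2822 bases before the downstream start. In Ccng1, where the mismatch falls between the invariant C and G of the first half-site, it lay 195 to 176 bases before the start, and in Trp53 itself, with 3 mismatches, 75 to 56 bases before the start. The stretches around these sites are given in the direction of transcription, with the site in capitals, to show how closely each matches the element that p53 recognises.
Cdkn1a (chr17:29090888-29090968, plus strand): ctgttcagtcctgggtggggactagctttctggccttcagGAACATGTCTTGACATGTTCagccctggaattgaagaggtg
Ccng1 (chr11:40755422-40755521, minus strand): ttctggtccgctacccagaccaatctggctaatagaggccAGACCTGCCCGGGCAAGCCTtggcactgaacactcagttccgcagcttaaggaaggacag
Trp53 (chr11:69580244-69580343, plus strand): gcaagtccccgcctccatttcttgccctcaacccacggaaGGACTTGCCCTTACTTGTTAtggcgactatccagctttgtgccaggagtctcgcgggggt
At least 1 half-site was matched without mismatch in 4 of the 8 genes, Trp53, Mdm2, Cdkn1a and Ccng1, and in 9.55% of all genes. Phlda3 held no half-site in its window, and Zmat3 and Trp53inp1 had no window. These are matches of letters within 300 bases of sequence, and binding of p53 was not measured. Sites outside the windows, such as those in introns, were not searched.

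Phlda3, Trp53inp1 and Zmat3, 3 of the 10 genes, were called higher after 48 passages than after 10, and 0 were called lower. A gene was called at a limma adjusted p-value under 0.05, with Benjamini-Hochberg adjustment over the 11018 genes tested and a difference of 1 or more on the log2(FPKM + 1) scale. Among all genes tested, 10.8% were called higher and 9.15% lower by the same rule, 19.9% in all. Before adjustment, 6 of the 10 genes and 37.4% of all genes tested had a limma p-value under 0.05. The 48-passage libraries both exceeded the 10-passage libraries in 7 of the 10 genes, against 31.7% of all genes tested, and lay below them in 2, Trp53 and Mdm4, against 34.3%. Groups without overlap thus made up 9 of the 10 genes and 65.9% of all genes tested. The median log2 difference of the 10 genes was 1.02, and that of all genes tested was -0.03. The count of 3 became 1 without replicate 1 of 10p-HFSCs, where 5.8% of all genes were called higher, and 0 without replicate 2 of 10p-HFSCs, where 6.57% were. It became 6 without replicate 1 of 48p-HFSCs, where 15.5% of all genes were called higher, and 4 without replicate 2 of 48p-HFSCs, where 7.98% were. When the values were rescaled to TPM, which makes every library sum to the same total, Phlda3 alone of the 10 genes was called, against 5.65% of all genes called higher and 7.37% lower. The smallest two-sided p-value of an exact permutation test is 0.333 in groups of this size, so the calls depend on pooling the variance over genes.

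**Figure D1:**
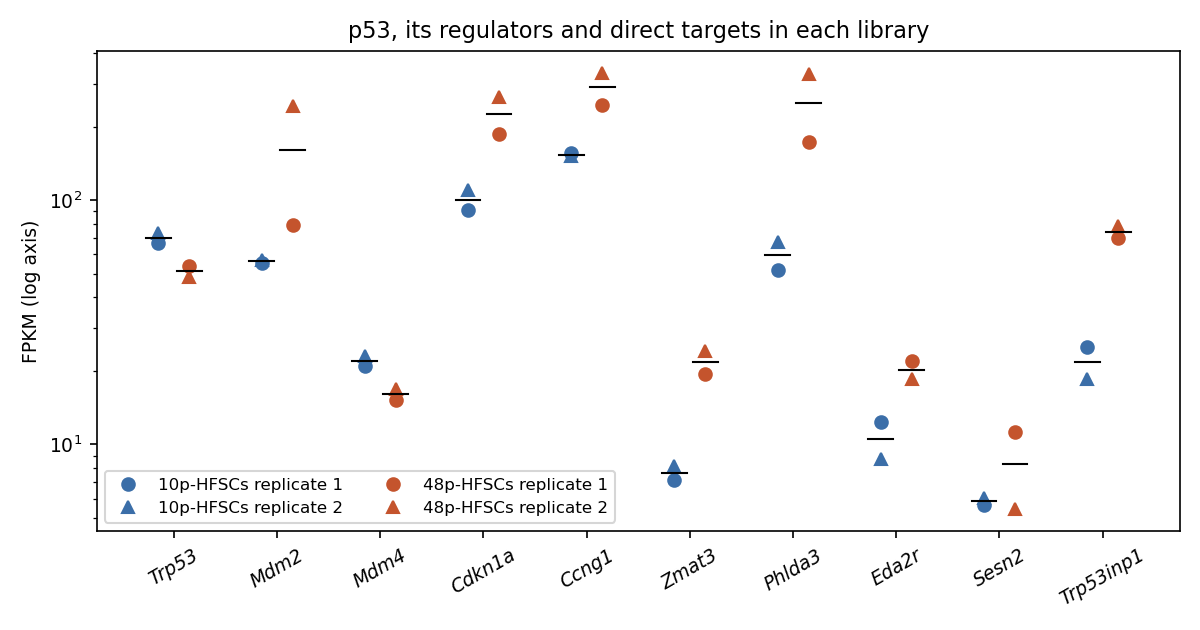
FPKM of the 10 genes on a log axis in each library (blue, 10p-HFSCs; red, 48p-HFSCs; circles, replicate 1; triangles, replicate 2; bars, group means, n = 2). In 7 genes both red symbols lie above both blue ones, in Trp53 and Mdm4 they lie below, and the red symbols of Mdm2, Sesn2 and Phlda3 are far apart.

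Libraries were not equal in summed FPKM or in the steps between low FPKM values. The FPKM values summed to between 581516 and 1414953 per library, the highest sum being that of replicate 2 of 48p-HFSCs. A depth relative to replicate 1 of 10p-HFSCs was estimated from the commonest ratio between low FPKM values. It was 46.7% for replicate 2 of 48p-HFSCs, where 167 of 927 genes compared shared the ratio. The other 2 libraries were at 71.6% and 82.9%. These ratios read as depth only if FPKM was scaled to the mapped total of each library, which was not tested. Median-of-ratios scaling, which levels the libraries by the median ratio of their genes, changed little. With it 1198 of all genes were called higher, against 1189 without it. All 10 genes were at an FPKM above 5 in every library. Basal keratinocyte markers were abundant, with Krt14 at 1423 and 1217 at 10 passages, against 3896 and 2439 at 48 passages. Of 9 hair follicle stem cell and basal markers, Sox9 was called lower, at 45.6 and 44.2 at 10 passages, against 20.2 and 8.31 at 48 passages, and Itga6 was called higher, at 31.4 and 20.8, against 101 and 79.0. Krt15 overlapped between groups, at 136 and 82.6, against 425 and 18.8. Cd34 was at no more than 0.234 in any library, and Lhx2, Lgr5 and Nfatc1 were at no more than 0.0303. By qRT-PCR the paper instead reported that Sox9 and Lhx2 rose in 48p-HFSCs and that CD34 was kept up. By flow cytometry and immunostaining it also reported CD34 protein on most cells at both passages. The reason for these differences, within RNA and between RNA and protein, was not tested. Of 9 fibroblast markers, Vim and Col1a2 reached an FPKM of 1, and the sum of the list was 353 and 388 in 10p-HFSCs against 2.54 and 3.32 in 48p-HFSCs, while Lum, Dcn and Thy1 were at 0 in every library. The sum of 5 leukocyte markers was 0.641 and 0.694 in 10p-HFSCs against 64.3 and 104 in 48p-HFSCs, nearly all of it Cd74, with Cd3e and Tyrobp at 0 throughout. The sums of 5 melanocyte markers ranged from 1.24 to 11.7 and those of 5 endothelial markers from 0.292 to 2.87. The part of these marker changes in the p53 results was not tested, and in bulk RNA fewer cells of a type and less RNA per cell cannot be told apart.

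Trp53 (mm10, chr11:69580359-69591873) had FPKM values of 67.1 and 73.7 at 10 passages, against 53.8 and 48.7 at 48 passages. The 48p-HFSC libraries were both lower, and the groups did not overlap. Group means were 70.4 ± 4.64 (SD, n = 2) and 51.2 ± 3.6 (SD, n = 2), and the log2 difference was -0.45 with a 95% interval from -1.07 to 0.16, which was not called (limma adjusted p = 0.24). The transcript was abundant at both passages, and the interval leaves room for a decrease of up to about 1 on the log2 scale. Wrap53, a neighbour on the opposite strand that lies 103 bases from Trp53 in GENCODE M21 and encodes a telomerase RNA-binding protein, went the other way, from 8.11 and 8.22 to 11.3 and 15.5, and was not called either (limma adjusted p = 0.16). The library kit keeps strand, but whether the authors counted by strand is not given in the sources used here. FPKM values do not show whether the transcript carries a mutation, nor how much p53 protein was present.

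Mdm2 (chr10:117688875-117710758), the ubiquitin ligase and feedback target, was at 55.5 and 56.9 at 10 passages, against 79.5 and 243 at 48 passages. Both 48p-HFSC libraries were higher, but replicate 2 was about 3 times as high as replicate 1. The log2 difference of 1.29 had a standard error of 0.53 and an interval from -0.02 to 2.60 and was not called (limma adjusted p = 0.14). It was 0.49 without replicate 2 of 48p-HFSCs and 2.09, and called, without replicate 1 of 48p-HFSCs (limma adjusted p = 0.00019). Mdm4 (chr1:132959484-133030561), the related inhibitor, was at 20.9 and 23.0 at 10 passages, against 15.2 and 16.8 at 48 passages. Its log2 difference of -0.43, with an interval from -1.04 to 0.17, was not called (limma adjusted p = 0.25). With the length and GC correction it was -0.095 for Mdm4 and -0.42 for Trp53. Within a library, the ratio of Mdm2 to Trp53 by FPKM was 0.827 and 0.772 at 10 passages, and at 48 passages it was 1.48 and 4.99. Mdm2 was therefore below Trp53 in both libraries of 10p-HFSCs and above it in both libraries of 48p-HFSCs. The ratio of Mdm4 to Trp53 was 0.311 and 0.313 at 10 passages, against 0.283 and 0.346 at 48 passages, so that the groups overlapped.

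Cdkn1a encodes p21, the inhibitor of cyclin-dependent kinases through which p53 halts the cell cycle, and lies at chr17:29090976-29100727. Its FPKM was 91.4 and 110 at 10 passages, against 186 and 265 at 48 passages. Both 48p-HFSC libraries were higher, by 0.89 and 1.40 on the log2 scale relative to the mean of 10p-HFSCs. The log2 difference was 1.14 (standard error 0.33, interval 0.33 to 1.95), and its limma adjusted p of 0.059 was just above the limit. Over 14 alternative fits the difference ranged from 0.56, under rescaling to TPM (limma adjusted p = 0.27), to 1.40, without replicate 1 of 48p-HFSCs. It was 0.77 with quantile normalization, 0.89 with the length and GC correction and 0.89 without replicate 2 of 48p-HFSCs. Cdkn1a was called with the replicate number as a block, as given below. Ccng1 (chr11:40748552-40755311) encodes cyclin G1, a p53 target that recruits a phosphatase to MDM2. It had the highest FPKM of the 10 genes in every library, 156 and 151 at 10 passages, against 247 and 334 at 48 passages. The groups did not overlap, and the log2 difference of 0.90 (interval 0.08 to 1.72) was not called (limma adjusted p = 0.11). It was called only with the length and GC correction together with the replicate block, and without replicate 1 of 48p-HFSCs, where it was 1.11. Under rescaling to TPM the difference was 0.31 (limma adjusted p = 0.54).

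Phlda3 (chr1:135766119-135769136) encodes a small protein that competes with the kinase AKT for membrane lipids and so restrains survival signaling. Its FPKM was 51.6 and 67.5 at 10 passages, against 173 and 328 at 48 passages. Both 48p-HFSC libraries were more than 2-fold above both 10p-HFSC libraries. It rose from a mean of 59.6 ± 11.3 (SD, n = 2) to one of 250.2 ± 110 (SD, n = 2), and the log2 difference was 1.99 (standard error 0.40, interval 1.02 to 2.97, limma adjusted p = 0.021), the largest of the 10 genes. The call was lost without replicate 1 of 10p-HFSCs, with a log2 difference of 1.80 and a limma adjusted p of 0.19, and without replicate 2 of 10p-HFSCs, with 2.18 and 0.052. It was also lost when no filter on low values was used (limma adjusted p = 0.051).

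Trp53inp1 (chr4:11156431-11174379) encodes a nuclear protein that cooperates with p53 and takes part in autophagy. It was at 25.1 and 18.6 at 10 passages, against 70.0 and 78.5 at 48 passages. Replicates were close together in 48p-HFSCs, with a mean of 74.3 ± 6.05 (SD, n = 2). The log2 difference was 1.73 (standard error 0.27, interval 1.07 to 2.40, limma adjusted p = 0.0098), and the 48p-HFSC libraries lay 1.65 and 1.82 above the mean of 10p-HFSCs. Without replicate 2 of 10p-HFSCs the adjusted p was 0.098, and under rescaling to TPM it was 0.12, and in both cases the gene was not called.

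Zmat3 (chr3:32334792-32366014) encodes a zinc finger RNA-binding protein that regulates splicing and RNA stability downstream of p53. It was at 7.16 and 8.18 at 10 passages, against 19.4 and 24.1 at 48 passages. The groups were well apart, and the log2 difference was 1.39 (standard error 0.27, interval 0.73 to 2.05, limma adjusted p = 0.019). It was not called without replicate 1 of 10p-HFSCs (adjusted p = 0.15), without replicate 2 of 10p-HFSCs (adjusted p = 0.069) or under rescaling to TPM (adjusted p = 0.39).

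Eda2r and Sesn2 were not called. Eda2r (chrX:97333840-97377216) encodes a receptor of the tumor necrosis factor family that binds ectodysplasin A2. It was at 12.3 and 8.75 at 10 passages, against 22.0 and 18.5 at 48 passages, a log2 difference of 0.90 (interval 0.19 to 1.60, limma adjusted p = 0.078). The difference was 1.01 without replicate 2 and 0.78 without replicate 1 of 48p-HFSCs. Under rescaling to TPM it was 0.36 (limma adjusted p = 0.74). Eda2r was called with the length and GC correction, with a difference of 1.12 and a limma adjusted p of 0.021, or 0.010 with the replicate block added. Sesn2 (chr4:132492032-132510501) encodes sestrin 2, which restrains the growth kinase mTORC1 when leucine is short and is also induced by other stresses than p53. It had the lowest FPKM of the 10 genes in every library, 5.66 and 6.04 at 10 passages, against 11.3 and 5.42 at 48 passages. The 48p-HFSC libraries lay on either side of 10p-HFSCs, and Sesn2 was the only one of the 10 genes whose groups overlapped (log2 difference 0.37, interval -0.55 to 1.30, limma adjusted p = 0.50).

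**Figure D2:**
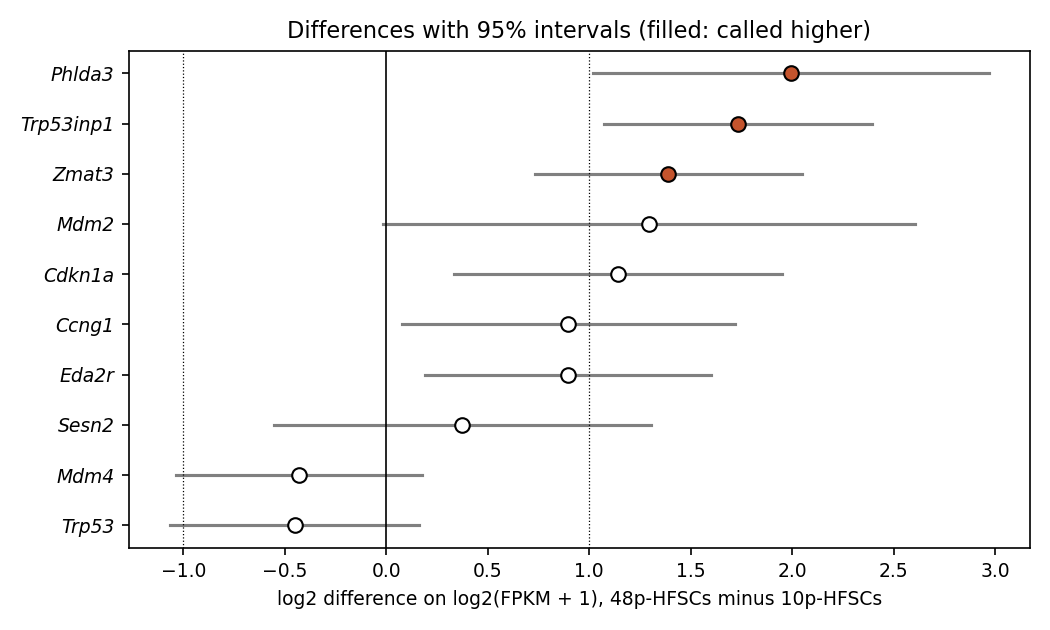
Log2 difference of each of the 10 genes on the log2(FPKM + 1) scale, 48p-HFSCs minus 10p-HFSCs, with the 95% interval from limma as a gray line and the called genes filled. Phlda3, Trp53inp1 and Zmat3 are called, 5 further genes lie to the right of 0 without being called, and Mdm4 and Trp53 lie to the left of 0.

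The order of levels within a library shifted between passages. In 10p-HFSCs the order began with Ccng1, Cdkn1a and Trp53 in both libraries, and Phlda3 and Mdm2 changed places between replicates. In 48p-HFSCs Trp53 was 6th in both libraries, behind Ccng1, Cdkn1a, Phlda3, Mdm2 and Trp53inp1, with Cdkn1a and Phlda3 in a different order in each library. The ratio of Cdkn1a to Trp53 by FPKM was 1.36 and 1.49 at 10 passages, against 3.46 and 5.45 at 48 passages. Profiles were also compared as the Euclidean distance between log2(FPKM + 1) values centred over the 4 libraries. The nearest of all genes tested were Nckipsd, Lmnb2 and Pbx3 for Trp53, at distances of 0.0225 to 0.0441, and Osgep, Zdhhc12 and Mroh1 for Cdkn1a, at distances of 0.0300 to 0.0777. Among the 10 genes, Mdm4 was nearest to Trp53, at 0.198, and Zmat3 was nearest to Cdkn1a, at 0.296. Profiles over 4 libraries in 2 groups are a description only, since many genes lie near any of them.

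A wider set of 52 further genes known as direct p53 targets, listed by role, moved in both directions. Of these, 48 passed the filter on low FPKM, 10 were called higher and 4 lower, and 34 were not called. The shares of all genes called are 10.8% and 9.15%, as given above. The median log2 difference of the 48 genes was 0.19. The counts became 5 higher and 2 lower without either library of 10p-HFSCs, where 5.8% and 6.57% of all genes were called higher and 2.06% and 3.06% lower. They became 15 and 9 without replicate 1 of 48p-HFSCs, against 15.5% and 20.6% of all genes, and 9 and 5 without replicate 2 of 48p-HFSCs, against 7.98% and 11%.

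Of 12 targets of growth arrest and feedback, 11 were tested. Among these, 3 were called higher and 0 lower, against 10.8% and 9.15% of all genes tested. Gadd45a, which encodes a stress sensor that inhibits CDK1, rose from 9.09 and 9.35 to 51.7 and 257, with a difference of 3.51 on the log2 scale (standard error 0.71, limma adjusted p = 0.023), with replicate 2 of 48p-HFSCs far above replicate 1. Psrc1, which encodes a microtubule-binding protein of the mitotic spindle, rose from 6.20 and 6.92 to 52.7 and 117 (log2 difference 3.40, limma adjusted p = 0.0041). Sfn encodes 14-3-3 sigma, which in keratinocytes marks exit from the stem cell state and can hold CDK1 in the cytoplasm, and rose from 174 and 218 to 710.5 and 826 (log2 difference 1.97, limma adjusted p = 0.021). Sesn1, the relative of Sesn2, was lower in both 48p-HFSC libraries, at 18.2 and 12.5 against 7.36 and 5.13, and just missed the limit (log2 difference -1.17, limma adjusted p = 0.053).

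Of 13 targets of cell death, all were tested, 2 were called higher and 1 lower, against 10.8% and 9.15% of all genes tested. Fas, the death receptor, rose from 2.67 and 3.14 to 32.4 and 64.8 (log2 difference 3.59, standard error 0.38, limma adjusted p = 0.0028). Pmaip1, which encodes the BH3-only protein NOXA, rose from 13.5 and 12 to 53.9 and 116 (log2 difference 2.55, limma adjusted p = 0.010). Dram1, which encodes a lysosomal protein of autophagy, fell from 26.9 and 24.5 to 2.24 and 1.33 (log2 difference -3.28, limma adjusted p = 0.0017). Bax, the pore-forming effector of mitochondrial cell death, overlapped between groups, at 179 and 271 at 10 passages, against 146 and 275 at 48 passages (log2 difference -0.13, limma adjusted p = 0.85). Perp, which encodes a desmosome component that p63 also controls in the epidermis, was at 366 and 344 against 540 and 579 and was not called (limma adjusted p = 0.27).

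Of 27 targets of DNA repair, metabolism and other roles, 24 were tested. Among these, 5 were called higher and 3 lower, against 10.8% and 9.15% of all genes tested. Gdf15, a secreted stress cytokine, was at 0.0554 and 0.232 at 10 passages, against 17.9 and 27.1 at 48 passages, and the log2 difference was 4.34 (standard error 0.31, limma adjusted p = 0.0011). The other genes called higher were Ddit4, an mTORC1 inhibitor that is also induced by low oxygen and glucocorticoids, Gls2, a mitochondrial glutaminase, Rrm2b, the ribonucleotide reductase subunit that supplies DNA repair, and Dglucy. Their log2 differences ranged from 1.14 for Dglucy to 1.48 for Ddit4. Sulf2, which removes sulfate groups from heparan sulfate, fell from 5.77 and 5.58 to 0.0164 and 0 (log2 difference -2.73, limma adjusted p = 0.0015). Tap1, a subunit of the peptide transporter for MHC class I that interferon also controls, fell from 7.09 and 6.99 to 1.57 and 1.26 (log2 difference -1.74, limma adjusted p = 0.0084), and Zfp365 fell from 27.4 and 23.7 to 7.68 and 6.35 (log2 difference -1.73, limma adjusted p = 0.0091).

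**Figure D3:**
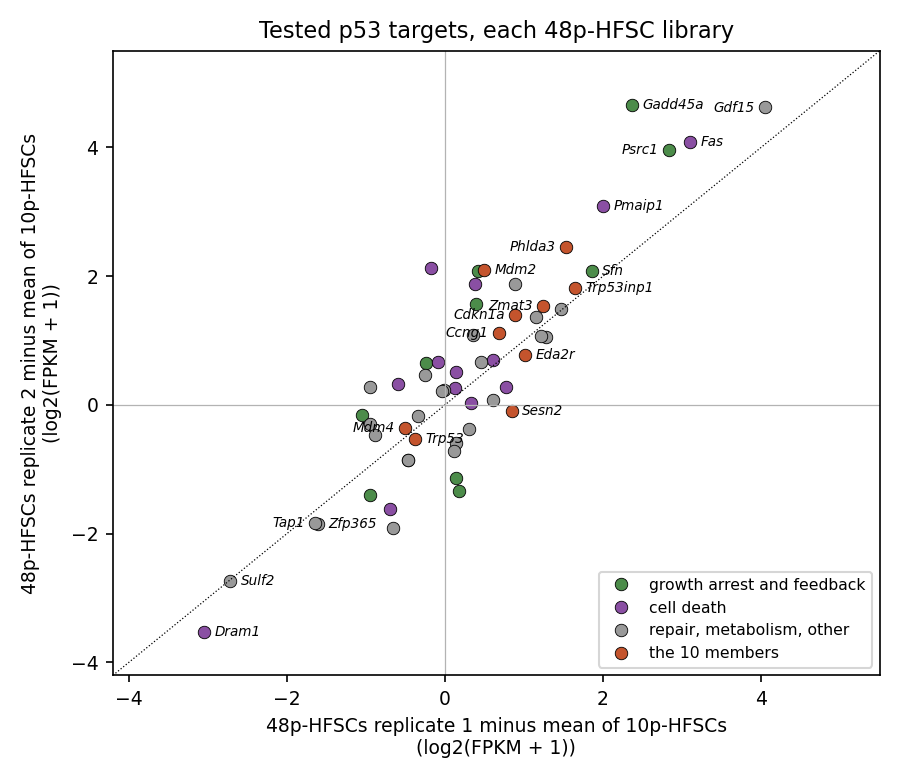
Log2(FPKM + 1) of each tested p53 target in each 48p-HFSC library minus the mean of 10p-HFSCs, with replicate 1 on the horizontal and replicate 2 on the vertical axis (the dotted line marks equal values). Gdf15, Fas, Psrc1, Gadd45a and Pmaip1 are high in both libraries, Dram1 and Sulf2 are low in both, and Mdm2 lies well above the line, at 0.49 and 2.09.

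Upstream of p53, 19 regulators were tested, 0 were called higher and 2 lower, against 10.8% and 9.15% of all genes tested. Both of the regulators called were lower in each 48p-HFSC library. Sirt1, which encodes a deacetylase of p53, fell from 8.54 and 6.87 to 1.82 and 0.962 (log2 difference -1.88, limma adjusted p = 0.012). Crebbp, which encodes the acetyltransferase CBP, a p53 coactivator, fell from 7.36 and 4.38 to 1.95 and 0.702 (log2 difference -1.58, limma adjusted p = 0.039). Cdkn2a, whose transcripts encode p16INK4A and the MDM2 inhibitor p19ARF, was at 9.28 and 8.83 at 10 passages, against 15.2 and 28.6 at 48 passages (log2 difference 1.12, limma adjusted p = 0.076), and the deposited values give 1 number for both transcripts. The numbers called, both of these regulators and of all genes, changed when single libraries were left out, as given below. With all libraries, 8 of the 19 and 37.4% of all genes tested had an unadjusted limma p-value under 0.05.

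The p53 family members that share its response element were also measured. Trp63, which encodes p63, the master regulator of basal keratinocytes, was at 60.4 and 42.0 at 10 passages, against 124 and 52.7 at 48 passages, so that the groups overlapped (log2 difference 0.67, limma adjusted p = 0.33). It was called higher without replicate 2 of 48p-HFSCs. Trp73 was lower in both 48p-HFSC libraries, at 3.32 and 3.59 against 2.14 and 0.908, and was not called (log2 difference -0.86, limma adjusted p = 0.11). It was called lower without replicate 1 of 48p-HFSCs.

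Cell cycle genes that p53 represses through p21 and the DREAM complex, a repressor that silences mitotic genes in resting cells, numbered 19. All were tested, and 0 were called by limma in either direction, against 19.9% of all genes tested. An unadjusted limma p-value under 0.05 was found for 2 of the 19 and for 37.4% of all genes tested. The median log2 difference was -0.04, and the difference was above 0 in 9 genes and below 0 in 10. The 2 genes with the smallest p-values, both lower at 48 passages, are given here. Mki67, the proliferation marker, was at 71.6 and 57.7 at 10 passages, against 35.8 and 39.6 at 48 passages (log2 difference -0.76, limma adjusted p = 0.092). Cdc20, the activator of the anaphase-promoting complex, was at 45.8 and 42.3 against 10.4 and 28.1 (log2 difference -1.30, limma adjusted p = 0.099). Without replicate 1 of 48p-HFSCs 7 of the 19 and 15.5% of all genes were called higher, and without replicate 2 of 48p-HFSCs 1 of the 19 and 11% of all genes were called lower.

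**Figure D4:**
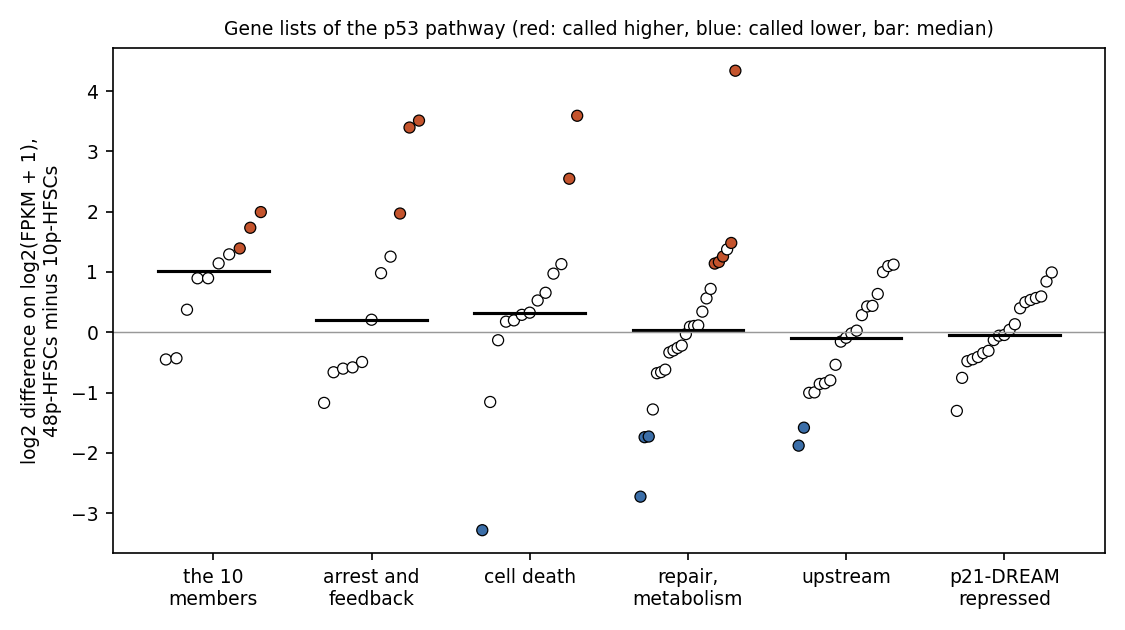
Log2 difference on the log2(FPKM + 1) scale, 48p-HFSCs minus 10p-HFSCs, of each tested gene of 6 lists of the p53 pathway, with genes called higher in red, called lower in blue and not called in white, and the list median as a bar. The median is 1.02 for the 10 genes, between 0.03 and 0.33 for the other target lists, -0.09 for the upstream regulators and -0.04 for the genes repressed through p21 and DREAM.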

How the data were processed

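Polyadenylated RNA of 10p- and 48p-HFSCs was sequenced in 4 libraries, 2 in each group. The authors mapped reads to mm10 and deposited 1 FPKM value per gene symbol and library. The submitters' processing notes name TopHat2 2.1.1, Bowtie2 2.2.8, SAMtools 0.1.18 and Cuffdiff 2.2.1, while the methods name Cufflinks and other versions of Bowtie2 and SAMtools. The annotation, strand setting and handling of multi-mapped reads are not given in the sources used here. Read counts were not used here, and the absolute depth is unknown, so no counting interval is given.

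FPKM values were taken to log2 after adding a pseudocount of 1, which understates the change of low genes, and genes that reached an FPKM of 1 in 2 or more libraries were tested with limma 3.58.1 in R 4.3.3 (eBayes with a variance trend). The fit was tested on simulated data. GENCODE M21 (GRCm38, of which mm10 is another name) gave gene positions, lengths and base composition, and RefSeq the promoters. The members and lists were chosen with earlier results of these data known. All 10 members were named, together with up to 4 called genes of each list by size of difference, or the 2 with the smallest p-values where none was called, and Wrap53, Trp63, Trp73 and Cdkn2a. Sesn1, Bax, Perp, Ddit4, Gls2, Rrm2b and Dglucy were added after their values were seen, and so were the mismatch limits of the motif search. Dglucy is listed under an older symbol. Alternatives were another pseudocount, other filters, scalings and variance prior, the replicate number as a block, a correction for length and GC content, and leaving out each library.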

Additional observations from a re-analysis of the deposited data

How the results depend on the processing

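Each member's difference was computed under 14 alternatives, and 120 of the values kept their direction and side of the limits, 10 became called, 8 were no longer called and 2 reversed. Both reversals were of Sesn2, at -0.11 under rescaling to TPM and -0.09 without replicate 1 of 48p-HFSCs. Rescaling to TPM moved the median of all genes to -0.56 on the log2 scale, and relative to that median the members stood at -0.47 for Trp53, -0.44 for Mdm4 and between 0.45 for Sesn2 and 1.97 for Phlda3. Under this scaling 623 of all genes, 1 member (Phlda3) and 6 other targets were called higher. Called lower were 812 of all genes, 1 upstream regulator (2 without rescaling) and 1 gene repressed through p21 and DREAM. Without the filter on low values, 16679 genes were tested in place of 11018, and 637 of all genes and 1 upstream regulator were called lower. With a pseudocount of 0.1, 1 upstream regulator and 931 of all genes were called lower. Quantile normalization and the length and GC correction each gave 1 upstream regulator called higher, against 1286 and 1260 of all genes. The latter also gave 1 gene repressed through p21 and DREAM called lower, against 1070 of all genes. The cause of these moves was not tested.

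Same-numbered libraries deviated together from their group means, with a correlation of 0.408 across genes, but nothing in the labels ties a number to a shared batch. With the replicate number as a block, 5 members and 14.6% of all genes were called higher, as Mdm2 (adjusted p = 0.015) and Cdkn1a (adjusted p = 0.016) joined the 3, 7 other targets and 13.6% of all genes were called lower, 2 upstream regulators were called higher and 1 gene repressed through p21 and DREAM was called lower by limma. With this replicate block and the length and GC correction together, 6 members and 13.8% of all genes were called higher, 7 other targets and 12.2% of all genes lower, 1 upstream regulator higher, and 1 gene repressed through p21 and DREAM in each direction.

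When single libraries were left out, the number of all genes called ranged from 611 to 1609 higher and from 217 to 2131 lower, that of members called higher from 0 to 6, and that of other targets from 5 to 15 higher and from 2 to 9 lower. Upstream regulators ranged from 0 to 2 higher and from 0 to 5 lower, genes repressed through p21 and DREAM from 0 to 7 higher and from 0 to 1 lower, and p53 family genes from 0 to 1 in each direction. The log2 difference of Sesn2 ranged from -0.093 to 0.842. These fits hold 1 library in 1 group, which is assumed to vary like the other group. With 2 libraries a group, a member that was not called may still differ by a moderate amount.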

Other observations

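The 48p-HFSC libraries differed from each other more than the 10p-HFSC libraries did. Replicates were at least 2-fold apart on the log2(FPKM + 1) scale in 1.37% of the genes tested in 10p-HFSCs and in 17% in 48p-HFSCs, and in 0 and 1 of the 10 members. The 1 member was Mdm2, at 1.60 higher in replicate 2 than in replicate 1 of 48p-HFSCs. The same measure was -0.94 for Sesn2 and 0.92 for Phlda3, which was called. Some other p53 targets, chosen after their values were seen, differed between the 48p-HFSC libraries in the way Mdm2 did. Bbc3, which encodes the BH3-only protein PUMA, was at 6.51 and 10.5 at 10 passages, against 7.22 and 39.6 at 48 passages. Siva1, a proapoptotic gene, was at 42.6 and 58.5 at 10 passages, against 65.1 and 187 at 48 passages. Neither gene was called (limma adjusted p = 0.38 for Bbc3 and 0.18 for Siva1). Other targets, also chosen after their values were seen, were lower in replicate 2 than in replicate 1 of 48p-HFSCs. Ppm1d was at 8.18 and 7.51 at 10 passages, against 8.98 and 2.49 at 48 passages. Btg2 was at 32.1 and 29.2, against 34.0 and 13.4. Differences between the 48p-HFSC libraries thus went in both directions among p53 targets.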
